A study of Homo sapiens with 4 samples.

Results

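The mRNAs described here encode enzymes and regulators of cholesterol and fatty acid synthesis, a list of 37 genes set by name. Of the 19775 genes measured, each was represented by its brightest probe set that carries a single gene symbol, ranked by mean log2 signal. Of the list, 32 genes had such a probe set and 29 passed a filter on mean signal. The cells were SK-BR-3, a HER2-amplified breast cancer line with a missense-mutant p53, grown in DMEM with serum. The 4 groups, with 1 Affymetrix array each, were cells with control shRNA, cells with p53 shRNA, cells with control shRNA that received siRNA against Pontin, and cells with p53 shRNA that received the same siRNA. All groups carried an shRNA or empty vector and had been selected with puromycin, and the arms without Pontin siRNA carry the unexplained title word sicon. Cells were collected 24 h after siRNA transfection. The labels do not say whether the selected cells were a single clone or a mixed population, nor whether the siRNA arms came from separate selections.

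Cholesterol is built from acetyl-CoA through mevalonate to farnesyl diphosphate, which is joined to squalene and closed to lanosterol before the later sterol steps. Fatty acids are built from the same acetyl-CoA by ACLY, ACACA and FASN and are then desaturated and elongated. Both routes are transcribed under SREBP factors: SREBF2 mainly serves the sterol route and SREBF1 the fatty acid route, SCAP escorts the precursors out of the endoplasmic reticulum, and INSIG proteins hold them there when sterols are plentiful. Mutant p53 has been reported to raise mevalonate pathway transcripts together with SREBP factors, and fatty acid enzymes are known to be abundant in HER2-amplified cells. The list does not hold every step of either route.

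The promoters of the genes to which the results return are shown first, because SREBP factors act beside NF-Y, which binds the CCAAT box. Capitals in the first 6 mark each CCAAT box in either orientation (CCAAT or, on the other strand, its reverse complement) in the 250 bases before the transcription start, read 5′ to 3′ on the gene's strand. In SREBF2, capitals mark the sterol regulatory element, TCACNCCAC, instead. NSDHL lies at chrX:152830813-152831062 on the plus strand, STARD4 at chr5:111512536-111512785 on the minus strand, HMGCS1 at chr5:43313413-43313662 on the minus strand, INSIG1 at chr7:155297628-155297877 on the plus strand, SC5D at chr11:121292521-121292770 on the plus strand, DHCR7 at chr11:71448394-71448643 on the minus strand and SREBF2 at chr22:41832855-41833104 on the plus strand. The sequences and coordinates are RefSeq's for GRCh38.p14.
NSDHL: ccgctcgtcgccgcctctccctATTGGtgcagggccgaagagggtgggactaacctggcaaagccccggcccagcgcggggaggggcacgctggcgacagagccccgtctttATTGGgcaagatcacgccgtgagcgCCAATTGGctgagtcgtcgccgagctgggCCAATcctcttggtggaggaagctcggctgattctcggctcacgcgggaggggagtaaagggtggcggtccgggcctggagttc
STARD4: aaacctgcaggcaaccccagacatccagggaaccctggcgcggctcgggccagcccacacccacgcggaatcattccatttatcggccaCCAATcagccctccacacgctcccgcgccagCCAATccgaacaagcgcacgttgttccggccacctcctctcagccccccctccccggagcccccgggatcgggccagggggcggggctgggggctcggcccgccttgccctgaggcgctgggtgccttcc
HMGCS1: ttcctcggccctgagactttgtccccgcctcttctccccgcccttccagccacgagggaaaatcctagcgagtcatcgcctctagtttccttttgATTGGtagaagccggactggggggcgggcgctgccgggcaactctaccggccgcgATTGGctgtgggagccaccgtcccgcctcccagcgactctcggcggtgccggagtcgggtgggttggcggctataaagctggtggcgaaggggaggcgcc
INSIG1: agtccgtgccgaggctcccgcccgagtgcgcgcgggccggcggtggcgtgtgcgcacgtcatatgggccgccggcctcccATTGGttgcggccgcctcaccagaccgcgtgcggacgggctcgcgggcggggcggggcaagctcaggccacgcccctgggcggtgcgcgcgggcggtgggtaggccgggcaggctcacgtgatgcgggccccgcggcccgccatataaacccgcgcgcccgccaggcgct
SC5D: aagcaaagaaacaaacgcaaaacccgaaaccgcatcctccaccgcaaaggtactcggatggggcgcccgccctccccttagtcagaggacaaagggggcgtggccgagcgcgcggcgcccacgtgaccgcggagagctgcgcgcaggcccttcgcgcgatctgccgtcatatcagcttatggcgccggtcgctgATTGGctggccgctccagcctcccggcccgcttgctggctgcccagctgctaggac
DHCR7: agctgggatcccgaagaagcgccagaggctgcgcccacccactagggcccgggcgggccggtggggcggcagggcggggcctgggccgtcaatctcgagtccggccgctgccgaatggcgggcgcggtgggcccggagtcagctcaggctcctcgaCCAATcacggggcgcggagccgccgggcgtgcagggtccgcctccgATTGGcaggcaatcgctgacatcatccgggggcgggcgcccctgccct
SREBF2: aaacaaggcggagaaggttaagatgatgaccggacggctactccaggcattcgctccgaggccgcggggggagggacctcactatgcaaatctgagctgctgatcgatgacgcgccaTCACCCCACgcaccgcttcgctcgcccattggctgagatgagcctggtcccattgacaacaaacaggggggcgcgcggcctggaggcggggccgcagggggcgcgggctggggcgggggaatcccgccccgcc

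Promoter windows from 250 bases before to 50 bases after the start were found for 33 of the 37 genes, and motifs were searched on both strands in any window of a gene. The CCAAT box was present in 13 of 16 mevalonate and sterol genes (81.2%), in 8 of 12 fatty acid genes (66.7%), in 2 of 5 regulators and in 39.7% of all 27305 genes with a window. In the windows printed, NSDHL held 5 matches, of which 2 overlap in a palindrome, and STARD4, HMGCS1 and DHCR7 held 2 each. The windows printed were chosen for holding the motif, and the other windows of HMGCS1 and DHCR7 held no CCAAT box. The sterol regulatory element, searched as TCACNCCAC, was found in 2 of the 33 genes, SREBF2 and ACSL1 (6.06%), and in 1.39% of all genes. The E-box CACGTG, to which SREBP factors can also bind, was present in 5 of the 33 genes (15.2%), INSIG1 and SC5D among them, and in 8.77% of all genes. Overlaps between motifs were not removed, and a match describes the letters only.

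All values are linear MAS5 signals as deposited, and the arrays shared 1 trimmed mean. Median signals over all probe sets ran from 15.9 to 16.5 on the first 3 arrays and reached 19.6 with both knockdowns, where the 18 hybridization control probe sets averaged 1.42 times those of the control array. RUVBL1, which encodes Pontin, had 127.4 against 477.7 with its siRNA in control shRNA cells and 65.8 against 398.2 in p53 shRNA cells, 3.75-fold and 6.05-fold lower. Of 9 luminal and HER2 amplicon markers, 8 were well expressed, ERBB2 with signals from 4823 to 5581, while CDH1 lay below the signal filter. Summed over their lists, 3 leukocyte markers did not exceed 32.9 and 4 adipocyte markers did not exceed 47.6 on any array, with ADIPOQ, PLIN1 and FABP4 all below the signal filter. The other lists summed to at most 43.9 for 2 basal markers, 149.6 for 3 endothelial markers and 213.6 for 4 mesenchymal markers, the last mostly COL1A1, with VIM below the filter. In bulk RNA of this kind, fewer cells of a type and less RNA per cell cannot be told apart.

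No gene of the list passed the threshold for either knockdown. For each knockdown, 2 ratios were taken, 1 on each background of the other knockdown, so that the pairs of arrays are separate. A gene was called when both pairs moved the same way by at least 1.5-fold, a log2 ratio of 0.58. With p53 shRNA 0 of 29 genes were called, where 1.38% of the 12066 genes kept were called higher and 0.862% lower. With Pontin siRNA 0 of 29 were called, against 1.16% of genes higher and 1.24% lower. Most of the list was well expressed: 27 genes were bright, at or above the 75th percentile of probe sets, a mean signal of 110.3. Among all bright genes, p53 shRNA gave 0.220% called higher and 0.413% lower, and Pontin siRNA gave 0.181% and 1.10%, so a count of 0 among 27 lies near the background. There is 1 array per group, so no difference has a replicate check and no p-value is attached to it here.

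The pairs repeated each other closely for these genes. The difference between the log2 ratios of the 2 pairs of a knockdown had a median size of 0.06 over the 27 bright members, against 0.12 over all bright genes. With p53 shRNA the mean ratio of the pairs was within 0.25 of zero for 25 of 29 genes, and with Pontin siRNA for 26 of 29. So were 73.8% and 69.3% of all genes kept, and 85.6% and 79.1% of bright genes. The exceptions among the 29 for p53 shRNA were NSDHL, STARD4, AACS and INSIG1, and those for Pontin siRNA were STARD4, SREBF1 and ME1. These small ratios are described below as values. Centring each array on its median took the median over all genes kept to -0.14 for p53 shRNA and -0.16 for Pontin siRNA. With this shift of all genes, 11 and 5 of the 29 genes changed sign. Directions are given relative to zero in the uncentred values and do not allow for this shift. Quantile and cyclic loess normalization turned only ratios within 0.02 of zero, those of FDPS and SREBF1 for p53 shRNA and of INSIG2 and ELOVL5 for Pontin siRNA.

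**Figure D1:**
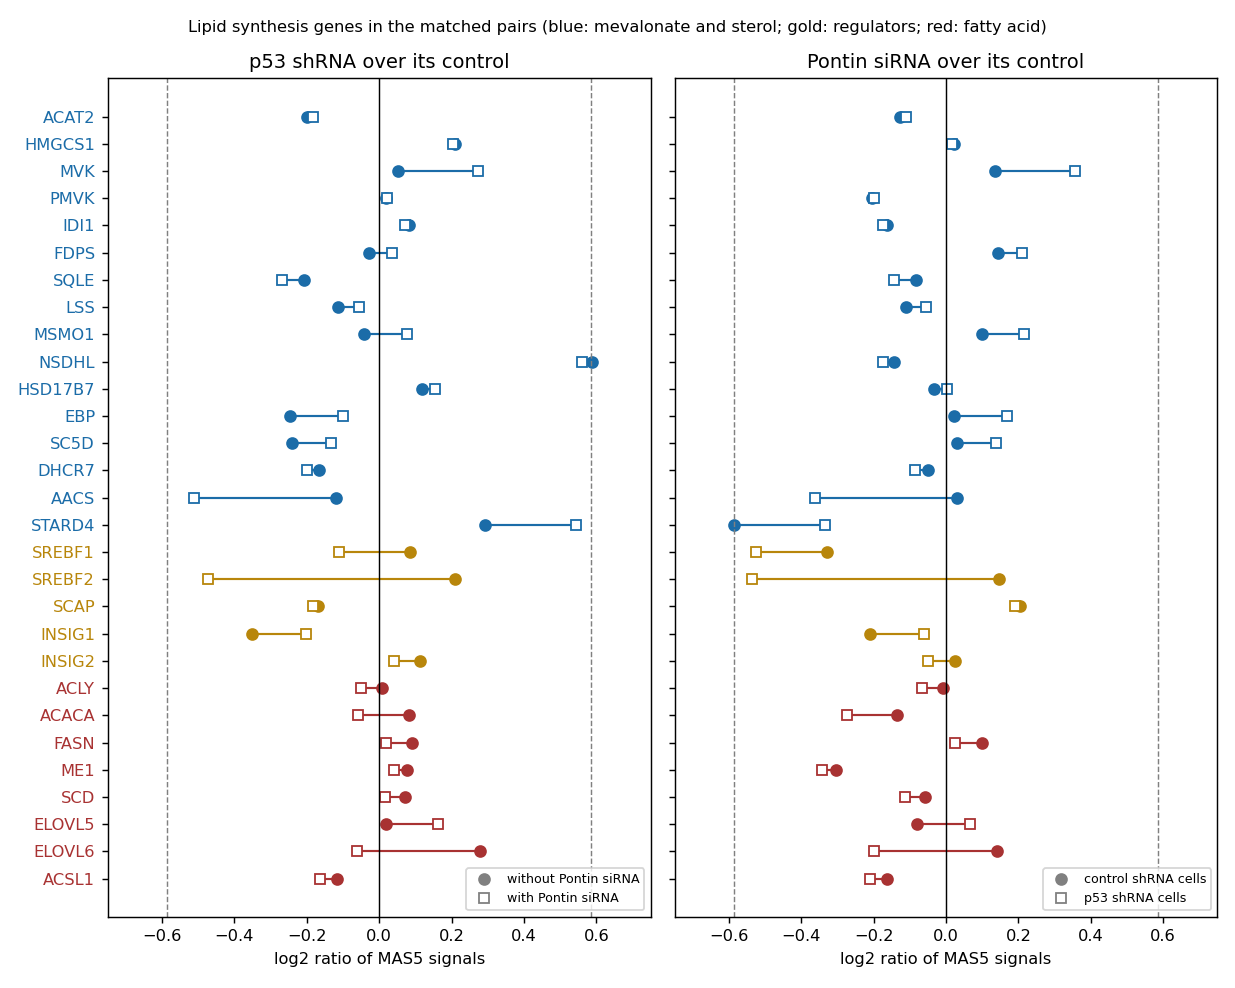
Log2 ratio of MAS5 signals for each of the 29 genes in both matched pairs of p53 shRNA (left) and Pontin siRNA (right), 1 array per group, with dashed lines at 1.5-fold. NSDHL at 0.59 and 0.56 with p53 shRNA came nearest to a call, and most genes lay within 0.25 of zero.

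With p53 shRNA the mevalonate and sterol genes had no common direction. Of 16 genes kept, 7 were above zero in both pairs and 7 below zero in both, where 30.6% of all genes kept were above and 32.2% below. The median of their mean log2 ratios was 0.01, against -0.002 for all genes kept, with pair medians of -0.04 without and 0.03 with Pontin siRNA. By position in the route, 4 of 6 genes up to farnesyl diphosphate were above zero in both pairs and 1, ACAT2, was below. Of 8 genes of the sterol steps, 5 were below zero in both pairs and 2 above, with a median of -0.13. IDI1 and PMVK among the early genes lay near zero, at means of 0.08 and 0.02.

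NSDHL, which encodes a sterol dehydrogenase that helps to remove the methyl groups at carbon 4, showed the largest ratios. Its signal was 233.9 in the control, 351.8 after p53 shRNA, 211.6 after Pontin siRNA and 311.8 after both. Both arrays with p53 shRNA were higher than both without it, at log2 ratios of 0.59 and 0.56. The second pair fell just short of the threshold. At a lower threshold, a log2 ratio of 0.32 in both pairs, NSDHL was the only member called higher and 0 were called lower, where 4.89% of genes kept were called higher and 3.46% lower. Among bright genes those shares were 1.96% and 1.95%. The other NSDHL probe set, with signals from 132.2 to 146.9, gave -0.03 and -0.08, so the difference rests on 1 probe set.

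HMGCS1, which encodes the synthase that makes HMG-CoA, measured 376.1 in the control, 434.5 after p53 shRNA, 381.8 after Pontin siRNA and 439.8 after both. The arrays with p53 shRNA were both higher, and the ratios of 0.21 and 0.20 nearly coincided. Its dimmer probe set gave 0.10 and 0.64. STARD4, which encodes a cytosolic sterol transport protein and is the only mevalonate or sterol gene kept that is not bright, had signals of 94.7, 115.9, 63.1 and 92.0 in the same order. Its p53 ratios were 0.29 and 0.54, but the array with both knockdowns lay below the control array, so the arrays with and without p53 shRNA overlap. HSD17B7, a ketoreductase gene of the sterol steps, was at 0.12 and 0.15, and MVK, the mevalonate kinase gene, at 0.05 and 0.27. The other 3 MVK probe sets were above zero in the first pair and below it in the second.

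SQLE, which encodes squalene epoxidase, a rate-limiting step after squalene, measured 1971 in the control, 1707 after p53 shRNA, 1862 after Pontin siRNA and 1546 after both. The arrays with p53 shRNA were both lower than those without, with log2 ratios of -0.21 and -0.27. All 4 SQLE probe sets lay below zero in both pairs, the others at -0.15 and -0.34, -0.35 and -0.36, and -0.44 and -0.65. ACAT2, whose product joins acetyl-CoA units at the start of the route, was at -0.20 and -0.18. DHCR7, the reductase gene of the last step to cholesterol, was at -0.17 and -0.20 on 1 probe set and at -0.52 and -0.04 on another of similar signal.

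SC5D, a desaturase gene just before DHCR7, had p53 ratios of -0.24 and -0.13, and the sterol isomerase gene EBP -0.25 and -0.10. LSS, which encodes the cyclase that makes lanosterol, was at -0.11 and -0.06. AACS, whose product activates acetoacetate for lipid synthesis, was at -0.12 and -0.51, the widest gap between pairs among the mevalonate and sterol genes, from a signal of 512.5 with both knockdowns against 658.7 to 730.6 on the other arrays. FDPS and the methyl oxidase gene MSMO1 lay within 0.08 of zero in both pairs and changed sign between them. Of the promoters printed with CCAAT boxes, those of NSDHL, STARD4 and HMGCS1 belong to genes above zero in both pairs. Those of INSIG1, SC5D and DHCR7 belong to genes below. These genes were picked for printing, while 23 of 33 genes with a window held a CCAAT box. The split therefore follows from the choice and says nothing about CCAAT boxes and direction.

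**Figure D2:**
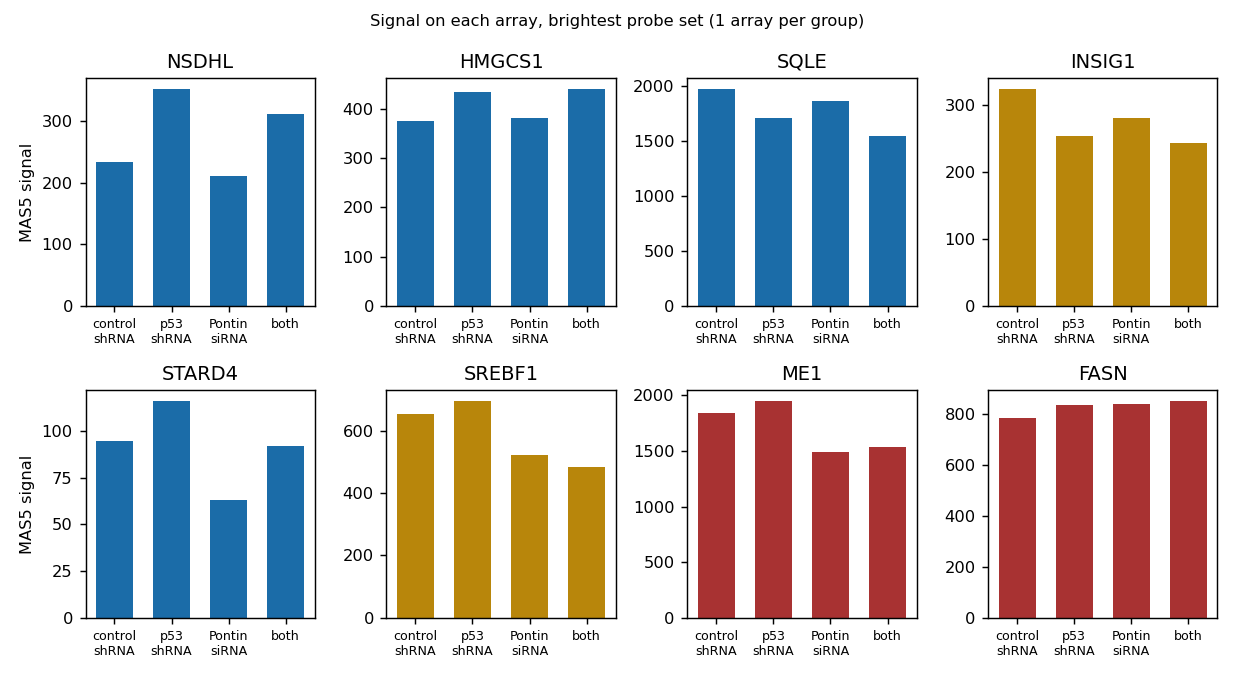
MAS5 signal on each of the 4 arrays for 8 genes, brightest probe set, axes from 0, 1 array per group. NSDHL and HMGCS1 are higher and SQLE and INSIG1 lower on both arrays with p53 shRNA, SREBF1 and ME1 are lower on both arrays with Pontin siRNA, and FASN runs only from 785.2 to 851.2.

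Among the regulators, INSIG1 and SCAP lay below zero in both pairs with p53 shRNA. INSIG1, itself a sensitive SREBP target, measured 324.3 in the control, 254.0 after p53 shRNA, 280.5 after Pontin siRNA and 243.7 after both. The p53 shRNA arrays were the 2 lowest, with ratios of -0.35 and -0.20. Its other 2 probe sets agreed in sign, at -0.36 and -0.51 and at -0.16 and -0.19. SCAP was at -0.17 and -0.18, and INSIG2, a paralog less dependent on SREBP, at 0.11 and 0.04. SREBF1 was at 0.09 and -0.11. SREBF2 was dim, with signals from 51.0 to 74.0, and at 0.21 and -0.47, and its other 2 probe sets were also lower in the second pair than in the first. The median over the 5 regulators was -0.13, but the pair medians were 0.09 and -0.18, so this median has no common direction.

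**Figure D3:**
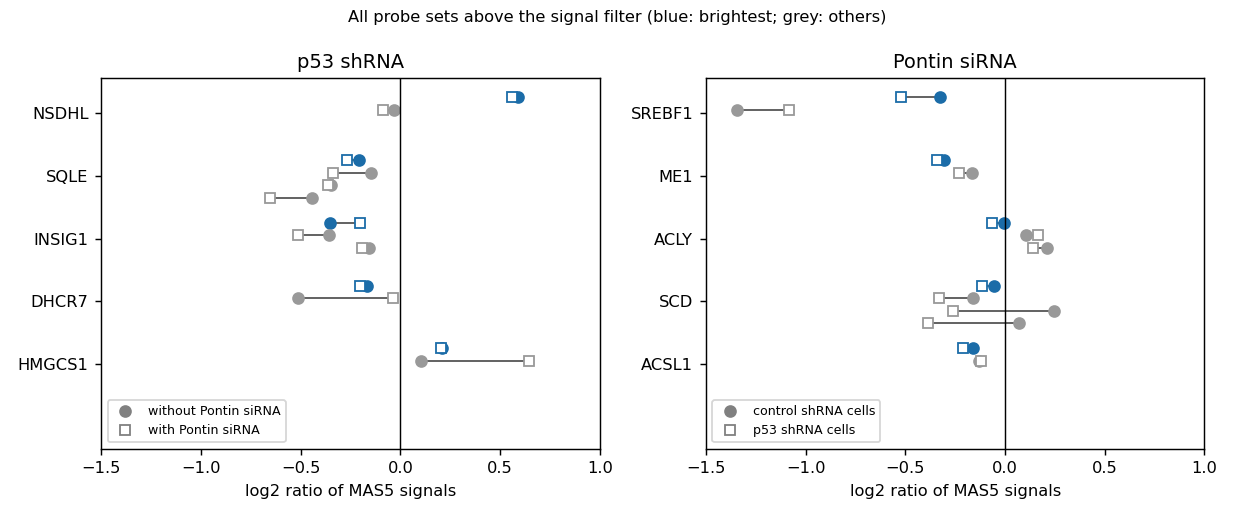
Log2 ratios in both matched pairs for every probe set above the signal filter of 5 genes with p53 shRNA (left) and 5 with Pontin siRNA (right), blue for the brightest probe set. The SQLE and INSIG1 probe sets all lie below zero with p53 shRNA, while those of NSDHL disagree, and both SREBF1 probe sets lie below zero with Pontin siRNA.

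The fatty acid enzymes lay close to zero with p53 shRNA. FASN, the multifunctional fatty acid synthase, measured 785.2 in the control, 836.5 after p53 shRNA, 840.6 after Pontin siRNA and 851.2 after both, with p53 ratios of 0.09 and 0.02. ACLY, the citrate lyase that supplies acetyl-CoA, ran from 4751 to 4972 over the 4 arrays. SCD, the stearoyl-CoA desaturase, ran from 3238 to 3543. Over the 8 genes kept the mean ratios lay between -0.14 and 0.11, with a median of 0.05 that was below zero with the mean over probe sets. FASN, ME1, SCD and ELOVL5 were above zero in both pairs on their brightest probe sets, and ACSL1, a long-chain acyl-CoA synthetase gene, was below at -0.12 and -0.16. Its second probe set gave -0.19 and -0.18. Other bright probe sets went the other way for SCD, at -0.15 and -0.32, and lay lower for ACLY, at -0.21 and -0.15. ELOVL6, the elongase of palmitate, was at 0.28 and -0.06, and at 0.23 and 0.25 on a second probe set. ACACA, the carboxylase gene that makes malonyl-CoA, was at 0.08 and -0.06, and at -0.35 and -0.48 on a dimmer probe set.

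**Figure D4:**
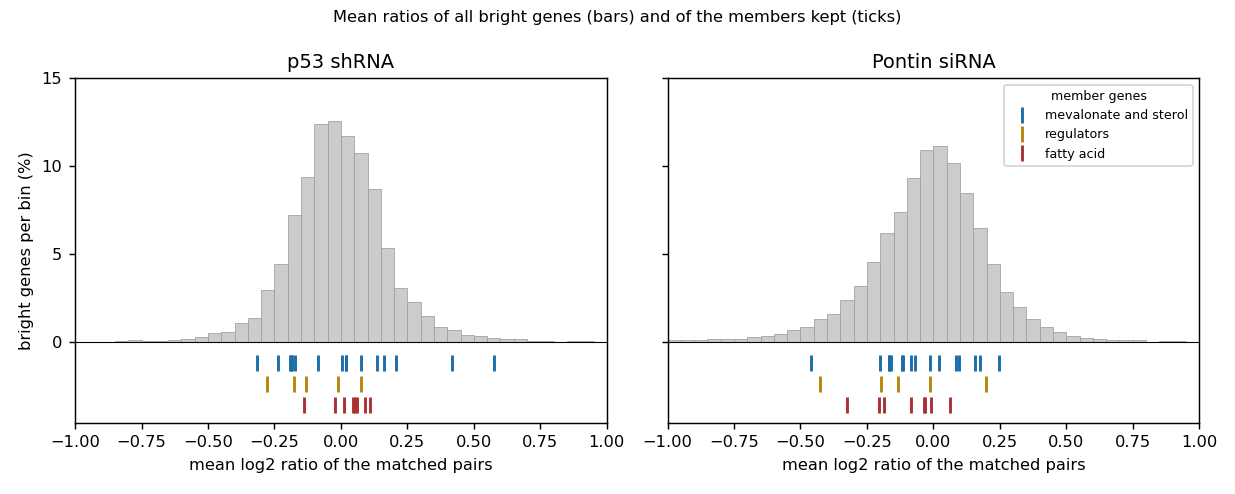
Mean log2 ratio of the matched pairs with p53 shRNA (left) and Pontin siRNA (right): bars give the percent of 7744 bright genes per bin, ticks the 29 members by group. Most members lie in the body of the distribution, while NSDHL at 0.57 for p53 shRNA and STARD4 at -0.46 for Pontin siRNA lie in its tails. STARD4 itself is not bright, and the ratios of all genes kept spread more widely than those of bright genes.

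With Pontin siRNA more members lay below zero than above it. In both pairs 15 of 29 genes were below zero and 8 above, where 32.0% of all genes kept were below and 33.9% above. With the mean over probe sets, 8 of the 29 changed the sign of their mean ratio. IDI1, SQLE, LSS, DHCR7, INSIG1, ACLY and ME1 went above zero and SC5D below it, so the lean depends on the probe sets used. By group, 8 of 16 mevalonate and sterol genes, 2 of 5 regulators and 5 of 8 fatty acid genes were below. At a log2 ratio of 0.32 in both pairs SREBF1 and STARD4 were called lower and 0 members higher, where 4.98% of genes kept were called lower and 4.79% higher. Among bright genes the shares were 4.58% lower and 2.17% higher, and 1 of 27 bright members, SREBF1, was called lower. Group medians were -0.08 for mevalonate and sterol genes, -0.13 for regulators and -0.06 for fatty acid genes, against 0.01 for all genes kept. The first median was above zero with the mean over probe sets and without probe set types that can cross-hybridize. Without those types only 20 of the 29 members remained, and IDI1 was on a probe set with signals from 8.4 to 36.2. The pair medians of the regulators were 0.02 in control shRNA and -0.06 in p53 shRNA cells, so their median has no common direction.

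SREBF1, the SREBP gene of the fatty acid route, measured 655.2 in the control, 522.0 after Pontin siRNA, 695.0 after p53 shRNA and 483.4 after both. Both Pontin siRNA arrays were lower than both others, with log2 ratios of -0.33 and -0.52. A second SREBF1 probe set, at 21.7 against 55.1 in control shRNA cells and 21.6 against 45.7 in p53 shRNA cells, gave -1.34 and -1.08. With the mean over probe sets SREBF1 was called lower. The brightest INSIG1 probe set gave -0.21 and -0.06, while another was above zero in both pairs. SCAP was at 0.20 and 0.19. SREBF2 was at 0.15 and -0.54.

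ME1, the cytosolic malic enzyme that supplies NADPH for lipid synthesis, measured 1845 in the control, 1946 after p53 shRNA, 1493 after Pontin siRNA and 1536 after both. The Pontin siRNA arrays were both lower, with log2 ratios of -0.30 and -0.34, and a second bright probe set gave -0.17 and -0.23. A dim one, with signals from 2.7 to 19.1, turned the mean over probe sets above zero. ACSL1 was at -0.16 and -0.21, with -0.13 and -0.12 on its second probe set, and ACACA at -0.13 and -0.27, with 0.18 and 0.04 on its dimmer probe set. SCD was at -0.06 and -0.11, ACLY at -0.01 and -0.07 and FASN at 0.10 and 0.03. Both other ACLY probe sets were above zero in each pair.

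Among mevalonate and sterol genes, STARD4 had Pontin ratios of -0.59 in control shRNA and -0.33 in p53 shRNA cells, both arrays with Pontin siRNA lying below both others. PMVK, the phosphomevalonate kinase gene, was at -0.20 in both pairs, from 575.1 to 499.4 in control shRNA cells and from 582.3 to 507.0 in p53 shRNA cells, so its arrays did not overlap. IDI1, the isomerase gene that balances the C5 building blocks, showed -0.16 and -0.17 on the brightest probe set and -0.23 and -0.32 on another of similar signal, while its 2 dim probe sets had means above zero. NSDHL was at -0.14 and -0.17 and ACAT2 at -0.13 and -0.11. On the other side, FDPS, the farnesyl diphosphate synthase gene, was at 0.14 and 0.21, MVK at 0.14 and 0.36 and MSMO1 at 0.10 and 0.22. HMGCS1, at 0.02 in both pairs, was nearly level.

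In cells with both knockdowns against the control, 0 of 29 genes reached 1.5-fold, where 7.49% of genes kept were higher and 5.74% lower. Of the members, 18 lay below zero and 11 above, between -0.48 for AACS and 0.41 for NSDHL. SREBF1 was at -0.44, INSIG1 at -0.41, SQLE at -0.35 and ACSL1 at -0.33. Departures from the sum of the single log2 effects were small for most genes. SREBF2 departed by -0.68, AACS by -0.39 and ELOVL6 by -0.34, and the others lay between -0.20 and 0.25. The array with both knockdowns is the 1 that stands apart in its hybridization controls, and its part in these departures was not tested.

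Other genes of lipid metabolism, 81 in 8 lists, included 69 genes kept, of which 2 were called higher with p53 shRNA, 1 higher and 1 lower with Pontin siRNA, counts near the shares of 1.38%, 1.16% and 1.24% over all genes kept. Their medians were 0.01 and -0.01. THRSP, which encodes a lipogenic protein induced with fatty acid synthesis, was called lower with Pontin siRNA, from 143.9 to 77.6 in control shRNA and from 171.0 to 103.2 in p53 shRNA cells, ratios of -0.89 and -0.73. Its other probe sets gave -0.56 and -0.33, and -0.21 and 0.02. SCD5, a second desaturase gene, was called higher with each knockdown, from signals of 18.7 in the control to 109.1 after both, and NNT, the mitochondrial transhydrogenase gene, was called higher with p53 shRNA at 1.12 and 0.93, with signals from 29.1 to 78.3. Other NNT probe sets above the filter gave 0.77 and 0.04, and 0.12 and -0.59. Of the other SCD5 probe sets, all dim, none repeated a called change.

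Of 5 sterol efflux and LXR genes kept, 2 were above zero in both pairs with p53 shRNA and 1 was below. The shares over all genes kept were 30.6% above and 32.2% below. MYLIP, a ubiquitin ligase gene that limits lipoprotein receptors, went from 667.9 to 926.2 and from 588.6 to 804.4, ratios of 0.47 and 0.45. Other bright MYLIP probe sets gave 0.51 and 0.31, 0.54 and 0.28, and 0.68 and 0.23, while 1 dimmer probe set gave -0.10 and -0.06. The cholesterol exporter gene ABCA1, which is not bright, was at 0.39 and 0.66. LPCAT3, a phospholipid acyltransferase gene also under LXR, lay on the other side at -0.54 and -0.55, from 259.1 to 178.8 and from 334.5 to 227.7, and its dimmer probe set gave -0.26 in both pairs. None of these 3 reached 1.5-fold in both pairs. With Pontin siRNA, LPCAT3 was at 0.37 and 0.35, and its dimmer probe set at -0.07 in both pairs.

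In SREBP processing, 6 of 8 genes lay below zero in both pairs with Pontin siRNA, where 32.0% of all genes kept did, with a median of -0.19 against 0.01 for all genes. ERLIN2, an endoplasmic reticulum scaffold gene of sterol-regulated degradation, was at -0.41 and -0.40, and at 0.24 and -0.38 on a dimmer probe set, and the site-2 protease gene MBTPS2 at -0.28 and -0.21. Dimmer probe sets of MBTPS1, at 0.58 and 0.26, and of SEC23A, at 0.64 and 0.10, were above zero in both pairs. A dimmer MBTPS2 probe set was at -0.13 and 0.22, so the count of genes below zero depends on the probe sets used. With p53 shRNA ERLIN2 was at -0.18 and -0.17. In sterol storage and traffic, the sterol acyltransferase gene SOAT1, which makes cholesteryl esters, was at -0.32 and -0.30 with Pontin siRNA and the lysosomal lipase gene LIPA at 0.32 and 0.28. Of 7 fatty acid oxidation genes, 4 were below and 3 above zero in both pairs with Pontin siRNA, with a median of -0.22. Over all genes kept, 32.0% were below and 33.9% above, with a median of 0.01, and a list of 7 genes is small. HADHB, a trifunctional protein subunit gene, was at -0.47 and -0.71, and HADHA, which encodes the partner subunit, at 0.05 and 0.03. Other bright HADHA probe sets gave -0.01 and -0.79, and 0.07 and -0.01, so the probe sets of HADHA disagree in the second pair. Among triglyceride genes, the acyltransferase gene DGAT2 was at -0.39 and -0.62 with p53 shRNA. It is not bright, with signals from 36.7 to 57.3, and its dimmer probe set gave -0.19 and -0.48.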

How the data were processed

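The authors deposited linear signal intensity values made with MAS5, a tool the submitters' processing notes name without a version. Trimmed by 2% at either end, all arrays averaged 150.0. The genome build was not given in the sources used here. Of 54675 probe sets, 41091 carried 1 gene symbol in the platform annotation, 1801 several and 11783 none listed, 41037 matched a gene table by Entrez identifier, and only those with 1 symbol were used. Signals were taken to log2 without a pseudocount, the 14 zeros set to 0.1. Of 19775 genes, 12066 with a mean signal of at least 15.3, the median of all probe sets, were kept. Ratios, calls and medians were computed in Python 3.11.15, alternatives in limma 3.58.1, and the calls were tested on simulated data. With 4 arrays in all, precision is low. Signals were scaled no further in the values reported; the alternatives are in the closing section.

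Genes named with full values were, per role group and knockdown, up to 5 above and 5 below zero in both pairs with the largest smaller ratio, and called genes or the leading genes of the other lists. Members and lists were chosen with earlier results of these data known. Probe sets other than the brightest were described after their values were seen. Knockdown of p53 itself is not reported here, and FDFT1, CYP51A1, FADS1, ELOVL1 and ACSL3 had no probe set with 1 symbol in the annotation used and were not analysed here. MVD (signals from 1.4 to 4.0), FADS2 (2.0 to 7.4) and ACSL4 (5.2 to 11.7) did not pass the filter.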

Additional observations from a re-analysis of the deposited data

Results flagged for a closer look

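None of the 29 members had pair ratios of opposite sign that both reached a log2 size of 0.32, where 3.55% of genes kept did for p53 shRNA and 3.49% for Pontin siRNA. Of the other lipid genes, 3 did, and these differences between pairs were not tested. The farnesyltransferase gene FNTB was at -0.61 and 0.38 with p53 shRNA and at -0.35 and 0.64 with Pontin siRNA, a departure from additivity of 0.99. NR1H3, which encodes the LXR alpha receptor, was at 0.50 and -0.43 with p53 shRNA, a departure of -0.94. The acetyl-CoA carboxylase gene ACACB was at -0.34 and 0.37 with Pontin siRNA, a departure of 0.71.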

How the results depend on the processing

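The counts of 0 called members held under quantile normalization, the pseudocount of 16, no filter and bright genes alone. They also held without cross-hybridizing probe set types, where 20 members were left. With p53 shRNA 1 member, NSDHL, was called higher after cyclic loess, at a log2 ratio of 0.32 and, chosen after seeing the data, without the array with both knockdowns. With Pontin siRNA 1 was called lower under median centring (STARD4), with the mean over probe sets (SREBF1) and without that array (STARD4), and 2 at 0.32. An additive limma model with 1 residual degree of freedom called 0 of 12066 genes for either knockdown. Its unadjusted p was under 0.05 for 1390 genes and 2 members with p53 shRNA and for 1737 genes and 3 members with Pontin siRNA, and its lowest adjusted p among members was 0.40 for NSDHL and 0.34 for STARD4.

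Group medians for p53 shRNA were as follows. Mevalonate and sterol genes went from 0.01 to -0.12 with median centring, 0.090 without cross-hybridizing probe set types and -0.035 without the array with both knockdowns. Regulators went from -0.13 to 0.085 without that array, -0.26 with centring and -0.076 with the mean over probe sets. Fatty acid genes went from 0.05 to -0.084 with centring and -0.095 with the mean over probe sets. For Pontin siRNA, mevalonate and sterol genes went from -0.08 to -0.24 with centring, 0.0023 with the mean over probe sets, 0.046 without cross-hybridizing types and -0.042 without the array. Regulators went from -0.13 to -0.30 with centring, -0.013 with the mean, -0.074 among bright genes and 0.024 without the array. Fatty acid genes went from -0.06 to -0.23 with centring and -0.19 without cross-hybridizing types. Medians without cross-hybridizing types are over fewer genes, 20 of the 29 members in all. Centring shifts all genes alike, to medians of -0.14 and -0.16, and the cause of the other changes was not tested. Of 29 members, 15 for each knockdown kept the sign of their mean ratio under every scaling, pseudocount, filter and probe set alternative that held them. The setting without cross-hybridizing types held only 20 of the 29, so genes absent there were not checked under it. Of the 15, 14 for p53 shRNA and 12 for Pontin siRNA also kept their sign without the array with both knockdowns. Low signal limits STARD4, SREBF2 and the second SREBF1 probe set. It also limits FNTB, NR1H3 and ACACB, the genes flagged for opposite pairs.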
